A study of Homo sapiens with 8 samples.

Results

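BMP3, NDRG4, SDC2, TFPI2, CACNA1G, RUNX3, SOCS1, HIC1, MGMT and NEUROG1 are known for promoter methylation in colorectal cancer. They were taken by gene symbol from the abundance tables, and all 10 were found among the 60649 gene identifiers of the series. RNA-seq of polyadenylated RNA was made in 8 libraries of HCT116, an established human colorectal carcinoma line, with 2 libraries in each of 4 groups. UF1hypo is a single HCT116 clone that lost exon 4 of 1 UHRF1 allele and kept the other, so all 4 groups share the HCT116 background. Cells of both lines carried either shScr, a scrambled control hairpin, or shUHRF1, a hairpin against UHRF1, delivered by lentivirus and kept as puromycin-selected pools. The groups are named HCT116 shScr, HCT116 shUHRF1, UF1hypo shScr and UF1hypo shUHRF1. The labels do not say whether the libraries of a group came from separate cultures, so p-values measure only the spread between these libraries.

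UHRF1 binds hemimethylated CpG sites behind the replication fork and recruits DNMT1, the enzyme that copies DNA methylation to the new strand. When this copying fails, methylation is diluted with each division, and genes held silent by a methylated promoter can be transcribed again. The 10 genes include markers read in stool or plasma DNA (BMP3, NDRG4, SDC2, TFPI2), members of panels for the CpG island methylator phenotype, in which many promoters are methylated together (CACNA1G, NEUROG1, RUNX3, SOCS1), and the repair gene MGMT and the repressor gene HIC1. Only RNA was analysed here, so the values below are RNA levels and not methylation.

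Promoter windows were read from the RefSeq promoter table (GRCh38.p14), in which a window holds 250 bases before and 50 bases after a transcript start. NDRG4, TFPI2, RUNX3, SOCS1, MGMT and NEUROG1 matched by symbol and gave 10 windows. BMP3, SDC2, CACNA1G and HIC1 did not match. The 10 windows held between 7 and 49 CpG dinucleotides with a median of 33.5, beside a median of 14 over all 35116 windows. MGMT had 45 CpG and an observed over expected CpG ratio of 1.06, higher than 95.8% of all windows. NEUROG1 had 35 CpG and a ratio of 0.985, SOCS1 had 33 CpG and a ratio of 0.831, and TFPI2 had 26 CpG and a ratio of 0.819. RUNX3 and NDRG4 start at several places, and their windows differed. The 2 RUNX3 windows held 38 and 15 CpG, and the 4 NDRG4 windows held 49, 34, 8 and 7.

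The bases upstream of the start are shown for TFPI2 and SOCS1, whose RNA was higher in UF1hypo shUHRF1, for MGMT, whose RNA was higher in UF1hypo shScr, and for NEUROG1, which stayed at or near 0. CpG dinucleotides are in capitals, and each run is written 5′ to 3′ on the gene's strand.
TFPI2 (chr7:93890754-93891003, minus strand, 250 bases, 20 CpG): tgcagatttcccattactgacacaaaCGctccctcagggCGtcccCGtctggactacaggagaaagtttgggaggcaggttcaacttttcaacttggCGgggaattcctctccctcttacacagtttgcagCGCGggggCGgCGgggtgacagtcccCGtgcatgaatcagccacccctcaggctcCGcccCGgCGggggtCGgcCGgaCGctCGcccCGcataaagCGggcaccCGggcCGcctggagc
SOCS1 (chr16:11256205-11256454, minus strand, 250 bases, 27 CpG): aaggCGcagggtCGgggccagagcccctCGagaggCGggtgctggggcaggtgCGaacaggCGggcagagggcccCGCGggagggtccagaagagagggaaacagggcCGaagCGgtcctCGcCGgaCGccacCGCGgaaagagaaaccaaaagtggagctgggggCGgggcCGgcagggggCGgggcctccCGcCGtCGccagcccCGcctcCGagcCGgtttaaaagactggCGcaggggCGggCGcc
MGMT (chr10:129466991-129467189, plus strand, 199 bases, 29 CpG): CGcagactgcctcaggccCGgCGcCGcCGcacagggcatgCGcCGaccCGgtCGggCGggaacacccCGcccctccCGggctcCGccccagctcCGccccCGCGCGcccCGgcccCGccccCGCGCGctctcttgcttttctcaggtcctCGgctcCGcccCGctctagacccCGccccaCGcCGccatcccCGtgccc
NEUROG1 (chr5:135535965-135536214, minus strand, 250 bases, 30 CpG): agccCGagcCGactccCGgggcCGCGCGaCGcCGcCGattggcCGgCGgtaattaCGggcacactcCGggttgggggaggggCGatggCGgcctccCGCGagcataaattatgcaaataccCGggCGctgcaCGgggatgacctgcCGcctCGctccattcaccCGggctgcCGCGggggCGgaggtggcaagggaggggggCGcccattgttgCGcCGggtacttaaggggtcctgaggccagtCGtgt
All 4 runs held between 20 and 30 CpG, whether the RNA of the gene was at 0 or present. A pair of GAAA tetramers with 2 bases between them, the core of the interferon-stimulated response element, was searched on both strands of the 300-base windows and was found in the SOCS1 window alone among the 10. It occurred in 3.57% of all windows. The letters TTCNNNGAA, the core bound by STAT dimers, were found in 0 of the 10 windows and in 7.66% of all windows. A match is a description of letters and not of binding.

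UHRF1 itself (chr19:4903080-4962154) was measured first, as the target of the hairpin. Its level was 87.5 and 98.4 TPM in HCT116 shScr and 31.7 and 32.7 TPM in HCT116 shUHRF1. It was 47.3 and 50.6 TPM in UF1hypo shScr and 34.1 and 21.1 TPM in UF1hypo shUHRF1. TPM is an RNA level per transcript length that sums to the same total in every library. No library of a knockdown group reached its control group. The fitted log2 fold change was -1.5 ± 0.222 (SE) in HCT116 (limma, Benjamini-Hochberg adjusted p = 0.0564) and -0.84 ± 0.221 in UF1hypo (adjusted p = 0.0406), and these did not differ past the threshold (0.66 ± 0.313, adjusted p = 0.316). By TPM, the UF1hypo shUHRF1 libraries lay on either side of those of HCT116 shUHRF1. By FPKM, which is scaled for aligned bases, both lay lower, at 14.11 and 9.29 against 14.14 and 14.17. The knockdown groups of the lines were not tested against each other, and UHRF1 protein was not measured here.

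The files give no depth, which was worked out by dividing coverage by FPKM, and it lay between 5.42 and 7.83 aligned gigabases a library. The UF1hypo shUHRF1 libraries stood apart. They correlated with each other at r = 0.956 over 13781 genes, against 0.991 to 0.992 in the other groups, and the difference between them (first minus second library) followed the GC content of the transcript across genes with a Spearman's rho of 0.814. The same rho was -0.508 in UF1hypo shScr, the control of that comparison, and -0.0417 and -0.068 in HCT116 shScr and HCT116 shUHRF1. They also held 13058 and 13052 protein-coding genes above 1 TPM, against 12193 to 12354 in the other 6 libraries. Of 10 colon epithelium markers, 7 were above 1 TPM in every library, while CDH17, CDX1 and VIL1 stayed below 1 TPM throughout. The summed level of 6 leukocyte markers was 79.4 to 109 TPM in UF1hypo shUHRF1, 41.1 to 43.5 in UF1hypo shScr, 7.55 to 8.25 in HCT116 shUHRF1 and 13.9 to 15.2 in HCT116 shScr. That sum was carried by CD68, a lysosomal membrane protein, and PTPRC, the pan-leukocyte marker, did not pass 0.0728 TPM. The summed level of 6 fibroblast markers was 38.3 to 66.2 TPM in UF1hypo shUHRF1 and 21.2 to 28.9 TPM in the other groups, carried by COL1A1, with LUM at 0 everywhere. The sum of the epithelial markers was 4355 to 4410 TPM in HCT116 shScr, 5486 to 5605 in HCT116 shUHRF1, 8822 to 9095 in UF1hypo shScr and 9968 to 12781 in UF1hypo shUHRF1. The part of these sums in the results below was not tested.

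The 10 genes fell into a silent and an expressed class. BMP3, SDC2 and NEUROG1 were at or near 0 in every library. TFPI2 and HIC1 stayed below 1 TPM in 3 groups and reached it in UF1hypo shUHRF1. SOCS1, MGMT, NDRG4, CACNA1G and RUNX3 were above 1 TPM in all 8 libraries. A gene was tested where at least 1 library of the comparison exceeded 1 TPM, and called where it changed by over 1 in either direction on the log2(TPM + 1) scale at an adjusted p under 0.05. This scale understates the change of low genes. Groups of 2 libraries cannot reach an exact permutation p below 0.333 for a single gene, so the tests rest on a spread shared over genes and over all 8 libraries. On this scale the median difference between the libraries of a group was 0.453 in UF1hypo shUHRF1 and 0.117 to 0.161 in the other groups. The shared spread, and so the SE, can understate the spread of UF1hypo shUHRF1. It can also overstate the spread of the other groups. Of all tested genes, 9 were called with the knockdown in HCT116, and 89 when its 4 libraries were fitted alone. Between the shScr groups these counts were 455 and 585. Of the 10 genes, 0 were called in HCT116 in either fit.

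**Figure D1:**
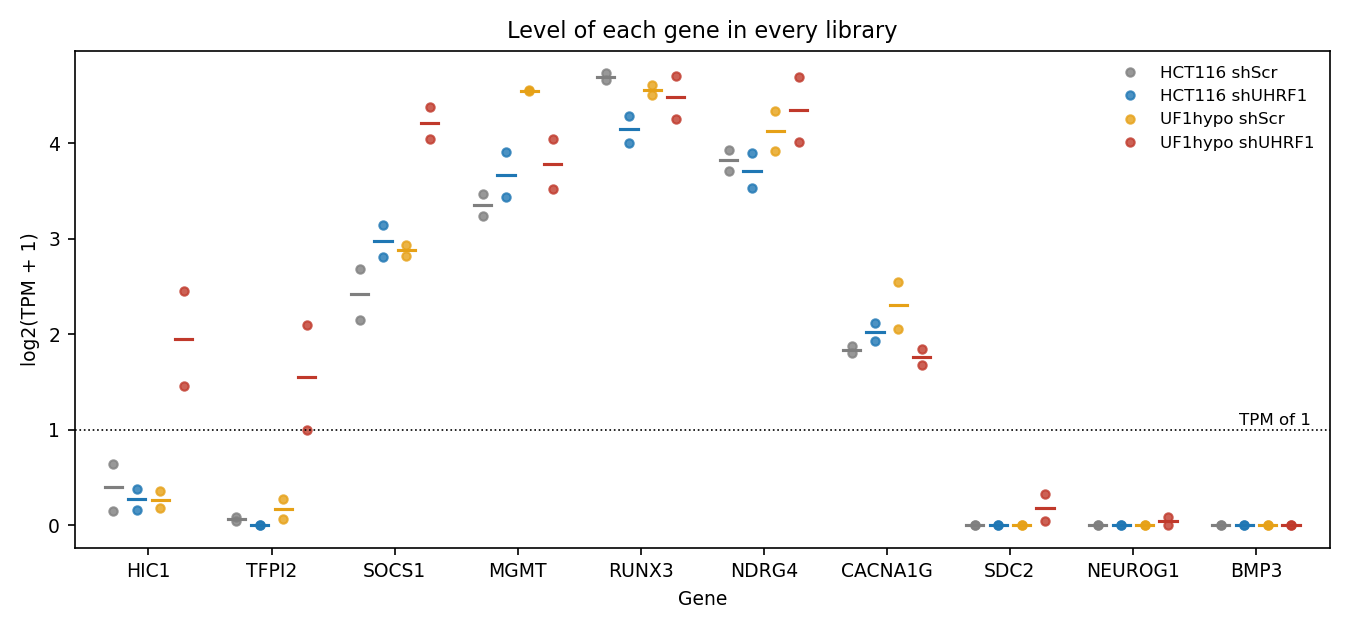
Level of the 10 genes in every library, as log2(TPM + 1) on the y axis. Each point is 1 library, each short bar the mean of the 2 libraries of a group, colours give the group, and the dotted line marks 1 TPM. HIC1, TFPI2 and SOCS1 have both UF1hypo shUHRF1 points above all other points, MGMT is highest in UF1hypo shScr, and SDC2, NEUROG1 and BMP3 lie at or near 0.

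In UF1hypo cells, UHRF1 knockdown was accompanied by higher RNA of 3 of the 10 genes: HIC1, TFPI2 and SOCS1. Of the 10 genes, 7 could be tested, 3 were called higher and 0 were called lower, beside 7.39% of all 13620 tested genes called higher and 1.14% called lower (8.53% in either direction). HIC1 and TFPI2 passed the filter only through the knockdown group, so a difference was built into their entry. Of the 7 tested genes, the groups did not overlap for 3 in the higher direction (HIC1, TFPI2 and SOCS1) and for 2 in the lower (MGMT and CACNA1G), where 30.6% and 18.3% of all tested genes did so.

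HIC1 (chr17:2054154-2063241, plus strand) encodes a zinc finger repressor of transcription that is named for its methylation in cancer. Its level was 0.108 and 0.563 TPM in HCT116 shScr, 0.300 and 0.119 TPM in HCT116 shUHRF1, and 0.133 and 0.281 TPM in UF1hypo shScr. It was 4.46 and 1.76 TPM in UF1hypo shUHRF1, so that both libraries exceeded the other 6 while lying far apart from each other. The log2 fold change in UF1hypo was 1.69 ± 0.333 (SE, adjusted p = 0.0125). The aligned exon bases behind it were 85210 and 32560 in UF1hypo shUHRF1 and between 183 and 10620 in the other libraries. The low values are uncertain in another way. The transcript length implied by coverage and FPKM ran from 725 to 6707 bases between libraries, so the TPM of HIC1 rests on different transcript models in different libraries. The end of HIC1 overlaps exons of SMG6, a nonsense-mediated decay nuclease on the opposite strand, whose 16.9 to 22.8 TPM did not change with the knockdown past the threshold (0.08 ± 0.169, adjusted p = 0.804). Reads of the pair cannot be told apart where the counting does not use strand, which the sources used here do not state.

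TFPI2 (chr7:93885396-93890753, minus strand) encodes a secreted Kunitz-type inhibitor of serine proteases such as plasmin. It was at 0.0579 and 0.0327 TPM in HCT116 shScr, listed at 0 in both HCT116 shUHRF1 libraries, and at 0.0493 and 0.21 TPM in UF1hypo shScr. It was at 0.997 and 3.29 TPM in UF1hypo shUHRF1. Both of these libraries lay above the other 6, and the first of them just missed 1 TPM. The log2 fold change in UF1hypo was 1.38 ± 0.328 (SE, adjusted p = 0.0279). In aligned exon bases the rise was from 362 and 760 in UF1hypo shScr to 6684 and 18400 in UF1hypo shUHRF1. The library order within UF1hypo shUHRF1 was opposite for the 2 genes: HIC1, with 63.5% GC, was higher in the first and TFPI2, with 37.1% GC, in the second. After correction for GC content and length the log2 fold changes were 1.38 for HIC1 (adjusted p = 0.00432) and 1.67 for TFPI2 (adjusted p = 0.000987), both still called. By FPKM in place of TPM the log2 fold change of TFPI2 was 0.81 (adjusted p = 0.0449), below the fold threshold.

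SOCS1 (chr16:11254417-11256204, minus strand) encodes an inhibitor of JAK kinases that is itself induced by interferon and other cytokines and closes a negative feedback loop. Unlike the former genes it was expressed in every library, at 5.43 and 3.45 TPM in HCT116 shScr and 6.03 and 7.86 TPM in HCT116 shUHRF1. In UF1hypo shScr it was at 6.06 and 6.68 TPM, and in UF1hypo shUHRF1 at 19.8 and 15.6 TPM. The UF1hypo groups were apart by far more than the spread within either. The log2 fold change was 1.34 ± 0.252 (SE, adjusted p = 0.0101), and it was 1.09 after correction for GC content and length (adjusted p = 0.004). SOCS1 lies within the span of RMI2, a genome stability gene on the opposite strand that was higher in UF1hypo shUHRF1 by a log2 fold change of 0.62 ± 0.170 (adjusted p = 0.0469) and was not called. The calls of HIC1, TFPI2 and SOCS1 were lost when either UF1hypo shScr library was left out, with log2 fold changes still between 1.27 and 1.78 and adjusted p between 0.0547 and 0.162. Without the first UF1hypo shUHRF1 library all 3 stayed called, and without the second HIC1 and SOCS1 did, while TFPI2 fell under the filter. A fit without either UF1hypo shUHRF1 library takes the spread of that group out of the error. When the 4 UF1hypo libraries were fitted alone the adjusted p was 0.0515 for SOCS1, 0.0752 for HIC1 and 0.146 for TFPI2.

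MGMT (chr10:129467190-129770983, plus strand) encodes the methyltransferase that removes alkyl groups from guanine and so counters alkylating drugs. Its level was 22.6 and 22.4 TPM in UF1hypo shScr and 15.6 and 10.5 TPM in UF1hypo shUHRF1. The groups did not overlap, and the knockdown group was the lower of the pair. The log2 fold change of -0.77 ± 0.249 (SE) had an adjusted p of 0.0811. Without the first UF1hypo shUHRF1 library it was -1.03, in a fit that leaves 1 library in that group. CACNA1G (chr17:50560715-50627474, plus strand), the pore-forming subunit of a T-type calcium channel, was at 3.17 and 4.84 TPM in UF1hypo shScr and at 2.60 and 2.20 TPM in UF1hypo shUHRF1, with a log2 fold change of -0.54 ± 0.230 and an adjusted p of 0.171.

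RUNX3 (chr1:24899511-24965121, minus strand) encodes a Runt-domain transcription factor that acts with SMAD proteins downstream of TGF-beta. Its level was 21.8 and 23.4 TPM in UF1hypo shScr and 25.2 and 18.1 TPM in UF1hypo shUHRF1, so the knockdown libraries lay on either side of the controls (-0.08 ± 0.209, adjusted p = 0.837). NDRG4 (chr16:58462846-58513628, plus strand), of the N-myc downstream-regulated family, was at 14.2 and 19.3 TPM in UF1hypo shScr and at 24.8 and 15.2 TPM in UF1hypo shUHRF1, and these groups overlapped (0.22 ± 0.277, adjusted p = 0.651). The TPM of NDRG4 depends strongly on the transcript model. The gene has 55 annotated transcripts, of which 37 are shorter than 700 bases, and the length implied by coverage and FPKM was 397 to 640 bases in every library. The exon union of NDRG4 was 15.1 to 24.3 times that length, beside a median ratio of 2.11 over 11500 genes. A like ratio of 5.61 to 7.03 was found for MGMT.

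The silent genes gave traces in the same group. SDC2 (chr8:96493813-96611790, plus strand), a heparan sulfate proteoglycan of the cell surface, was listed at 0 in 6 libraries and at 0.0279 and 0.256 TPM in UF1hypo shUHRF1. NEUROG1 (chr5:135534282-135535964, minus strand), a proneural basic helix-loop-helix factor, was listed at 0 in 7 libraries and at 0.0592 TPM in the second UF1hypo shUHRF1 library. BMP3 (chr4:81030708-81057627, plus strand), an atypical bone morphogenetic protein that antagonises the others, was listed at 0 in all 8. At most 309 aligned exon bases for SDC2 and 300 for NEUROG1 lay behind these traces, so they amount to very few reads. None of the 3 genes could be tested.

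**Figure D2:**
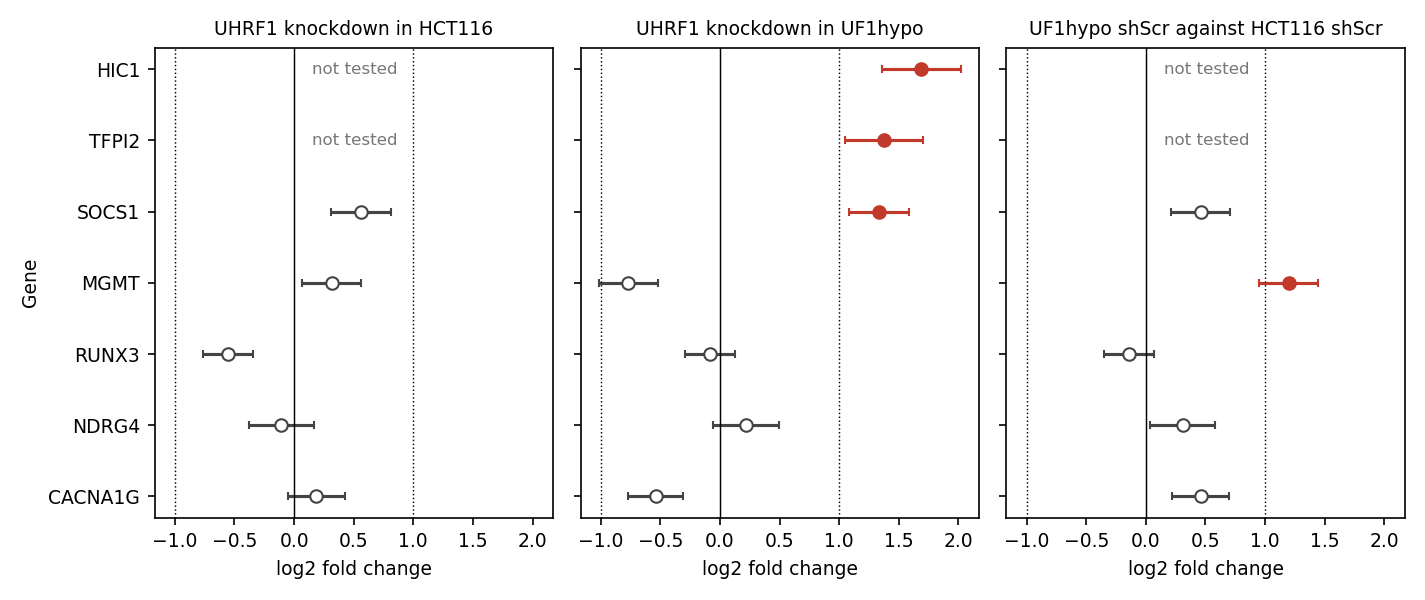
Log2 fold change on the log2(TPM + 1) scale (x axis) of the 7 genes that were tested in at least 1 comparison, with bars of 1 SE from the fit to all 8 libraries. Filled red points were called, open points were not, dotted lines mark the fold threshold, and genes below 1 TPM in all libraries of a comparison are marked as not tested. HIC1, TFPI2 and SOCS1 were called in UF1hypo, and MGMT between the shScr groups.

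In HCT116 cells with both UHRF1 alleles, the same hairpin was accompanied by a called change in 0 of the 5 genes tested. By limma 0.0708% of all 12704 tested genes were called in this comparison (0.0472% higher and 0.0236% lower), and 1 of the 5 genes, RUNX3, had an unadjusted p below 0.05. RUNX3 was at 25.6 and 24.4 TPM in HCT116 shScr and at 18.5 and 15.1 TPM in HCT116 shUHRF1. Its groups did not overlap, and its log2 fold change was -0.55 ± 0.209 (SE, unadjusted p = 0.0271, adjusted p = 0.636). The groups also stood apart for SOCS1 (0.56 ± 0.251, adjusted p = 0.797) and CACNA1G, which was at 2.66 and 2.51 TPM in HCT116 shScr and at 3.36 and 2.82 TPM in HCT116 shUHRF1 (0.19 ± 0.241). This made 2 of the 5 tested genes higher and 1 lower without overlap, where 20.1% and 29.3% of all tested genes were. MGMT was at 8.47 and 10.1 TPM in HCT116 shScr and at 14.0 and 9.84 TPM in HCT116 shUHRF1, and NDRG4 was at 12.1 and 14.3 TPM and at 10.6 and 13.9 TPM. Both overlapped between the groups by TPM. By coverage per aligned gigabase neither did. MGMT was then at 0.617 and 0.655 in HCT116 shScr and at 0.929 and 0.760 in HCT116 shUHRF1. NDRG4 was at 0.233 and 0.269 and at 0.288 and 0.307. The median log2 fold change of the 5 tested genes was 0.19, beside -0.03 over all tested genes.

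The difference between the effects of the hairpin in the lines was tested directly, as UF1hypo minus HCT116. None of the 7 tested genes was called, beside 5.09% of all 13781 tested genes (4.54% with a higher and 0.559% with a lower effect in UF1hypo), and 3 had an unadjusted p below 0.05. These were HIC1 (1.81 ± 0.470 on the log2 scale, adjusted p = 0.0694), TFPI2 (1.44 ± 0.463, adjusted p = 0.133) and MGMT (-1.08 ± 0.352, adjusted p = 0.137). In this test too, HIC1 and TFPI2 passed the filter only through UF1hypo shUHRF1, so a difference was built into their entry in every setting below. The difference was 0.78 ± 0.356 for SOCS1 (adjusted p = 0.296) and -0.73 ± 0.325 for CACNA1G (adjusted p = 0.284). So the calls of HIC1, TFPI2 and SOCS1 in UF1hypo were not matched by a called difference from HCT116. That outcome rested on single libraries and on the processing. Without the first UF1hypo shUHRF1 library the difference was 1.32 for HIC1, 1.99 for TFPI2 and -1.35 for MGMT. Without the second it was 2.31 for HIC1. Such a fit leaves 1 library in that group and takes the spread of the group out of the error. With the correction for GC content and length, HIC1 (1.45, adjusted p = 0.0284), TFPI2 (1.69, adjusted p = 0.00973), MGMT (-1.35, adjusted p = 0.0062) and CACNA1G (-1.11, adjusted p = 0.0274) were called.

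Before any UHRF1 hairpin, the clone differed from the parental line in 1 of the 10 genes. MGMT was at 22.6 and 22.4 TPM in UF1hypo shScr and at 8.47 and 10.1 TPM in HCT116 shScr, and its log2 fold change was 1.2 ± 0.247 (SE, adjusted p = 0.0296). Of the 5 genes tested, 1 was called higher and 0 lower, beside 2.59% and 0.949% of all 12856 tested genes (3.54% together). The call of MGMT was lost without any single library of these 2 groups, with adjusted p between 0.135 and 0.265. MGMT thus stood highest in UF1hypo shScr, while its other groups lay between 8.47 and 15.6 TPM. CACNA1G (0.46 ± 0.240) and SOCS1 (0.46 ± 0.251) were higher without overlap between the groups and RUNX3 (-0.14 ± 0.209) lower, which with MGMT makes 3 and 1 of the 5 tested genes, beside 29.1% and 37.2% of all tested genes. NDRG4 had a log2 fold change of 0.31 ± 0.274. UF1hypo is 1 clone, so the reduced UHRF1 dose and other features of the clone cannot be told apart.

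Among the levels per transcript length, RUNX3 (15.1 to 25.6 TPM), NDRG4 (10.6 to 24.8 TPM), MGMT (8.47 to 22.6 TPM) and SOCS1 (3.45 to 19.8 TPM) overlapped in range across the 8 libraries. By TPM, CACNA1G (2.20 to 4.84 TPM) lay below RUNX3, NDRG4 and MGMT in every library. By coverage per aligned gigabase CACNA1G stayed below RUNX3 but lay above NDRG4 in every library. In HCT116 shScr CACNA1G was then at 0.914 and 0.767, and NDRG4 at 0.233 and 0.269. Against MGMT it was higher in every HCT116 library and the second UF1hypo shScr library, and lower elsewhere. The order of these genes thus depended on the measure. In UF1hypo shUHRF1, HIC1 at 3.11 ± 1.92 TPM (SD, n = 2), CACNA1G at 2.40 ± 0.281 and TFPI2 at 2.14 ± 1.62 did not differ beyond their spread. HIC1 there stood above 42.1% of protein-coding genes and SOCS1 above 64.4%.

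The pathways around the 10 genes were read from 5 further lists, whose counts in UF1hypo stand beside the 7.39% of all tested genes called higher and 1.14% called lower there. Their counts between the shScr groups stand beside 2.59% called higher and 0.949% called lower. Of 32 other genes reported as methylated in colorectal cancer, 20 never passed 1 TPM and 8 of these were at 0 in all libraries. In UF1hypo, 12 were tested and 2 were called higher. VIM, the mesenchymal intermediate filament vimentin and a stool DNA marker itself, went from 1.48 and 0.700 TPM in UF1hypo shScr to 44.6 and 27.6 TPM in UF1hypo shUHRF1 (4.14 ± 0.299, adjusted p = 8.09e-05). In HCT116, VIM went from 2.45 and 1.82 to 15.0 and 11.7 TPM (2.19 ± 0.298, adjusted p = 0.0516). CDKN2A, the gene of the cell cycle inhibitor p16, went from 115 and 136 to 317 and 205 TPM in UF1hypo (1.02 ± 0.212, adjusted p = 0.016), and it was called in 10 of 20 settings. Its log2 fold change was 0.71 without the first UF1hypo shUHRF1 library, and its adjusted p was 0.136 and 0.0547 without the first and the second UF1hypo shScr library. Between the shScr groups 11 of this list were tested and TWIST1, a mesenchymal transcription factor, was called, at 10.4 and 10.2 TPM in UF1hypo shScr against 0.516 and 0.519 TPM in HCT116 shScr (2.89 ± 0.226, adjusted p = 0.000208). The median log2 fold change of the list was 0.21 in UF1hypo.

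SOCS1 acts on the interferon pathway, whose receptors, kinases and factors made a list of 11 genes, all tested. In UF1hypo, 2 were called higher with the knockdown, and both belong to the complex that binds interferon-stimulated response elements. IRF9 went from 30.9 and 32.5 TPM in UF1hypo shScr to 109 and 106 TPM in UF1hypo shUHRF1 (1.73 ± 0.179, adjusted p = 0.000545), and STAT2 from 53.7 and 54.1 to 128 and 118 TPM (1.18 ± 0.146, adjusted p = 0.00138). The median of the list was 0.45, and 6 of 11 genes were above 0. The 4 interferon receptors and JAK1 lay between -0.38 and -0.03. Between the shScr groups IRF9 (2.78 ± 0.180) and STAT2 (1.08 ± 0.15) were called higher in the clone. The call of STAT2 was lost without any single library of these groups, at adjusted p between 0.065 and 0.0773. SOCS1 itself was not called there. IRF9 also differed between the lines in its response to the hairpin (1.33 ± 0.253, adjusted p = 0.0222), a call lost without any single HCT116 or UF1hypo shScr library (adjusted p between 0.0737 and 0.14) and with the replicate number as a block (adjusted p = 0.0537).

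Of 25 paralogs of the 10 genes, 20 were tested in UF1hypo, 1 was called higher and 1 lower, which is near the shares over all tested genes. TFPI, the paralog of TFPI2 that inhibits the tissue factor pathway, fell from 13.4 and 11.2 TPM in UF1hypo shScr to 2.05 and 3.91 TPM in UF1hypo shUHRF1 (-1.77 ± 0.251, adjusted p = 0.00276). BMP4, another bone morphogenetic protein, rose from 123 and 126 to 271 and 244 TPM (1.04 ± 0.161, adjusted p = 0.00404). It was called in 13 of 20 settings, not without the first UF1hypo shUHRF1 library (0.97). RUNX1, the paralog of RUNX3, differed between the lines (1.34 ± 0.289, adjusted p = 0.0363) with values in UF1hypo of 19.4 and 18.1 TPM in UF1hypo shScr and 44.3 and 32.1 TPM in UF1hypo shUHRF1 (0.97 ± 0.204). The call of this difference held in 11 of 21 settings, and was lost with the replicate block (adjusted p = 0.0519), median-ratio scaling (0.0596), quantile normalization (0.0657), exon coverage (0.121) and without any single HCT116 or UF1hypo shScr library (0.126 to 0.18). The median of the list was 0.12.

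Of 10 partners of RUNX3, HIC1, TFPI2 and MGMT, 9 were tested and 1 was called in UF1hypo. F3, the tissue factor that starts the coagulation cascade and is opposed by TFPI, rose from 109 and 102 to 318 and 427 TPM (1.79 ± 0.171, adjusted p = 0.000381). It was at 45.9 and 44.1 TPM in HCT116 shScr and at 26.6 and 28.4 TPM in HCT116 shUHRF1, and the effects differed between the lines (2.48 ± 0.243, adjusted p = 0.00109). Between the shScr groups F3 was called higher (1.21 ± 0.174) and the mismatch repair gene MSH6 lower (-1.06 ± 0.237, adjusted p = 0.0407), the latter in 9 of 18 settings. Without any single library of these groups neither was called, at adjusted p between 0.0599 and 0.07 for F3 and between 0.123 and 0.301 for MSH6. Of 12 BMP receptors, SMADs and ID targets, 11 were tested and limma called 0 in UF1hypo. The 1 gene of them at an unadjusted p below 0.05 had an adjusted p of 0.0305. Its log2 fold change of -0.59 did not reach the fold threshold. In UF1hypo 9 of the 11 lay below 0, with a median of -0.27. ID3, a target of BMP signals, was called higher in the clone (1.56 ± 0.146, adjusted p = 0.000576). In HCT116, 61 genes of the 5 lists were tested with the knockdown and limma called 0, with 9 at an unadjusted p below 0.05.

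**Figure D3:**
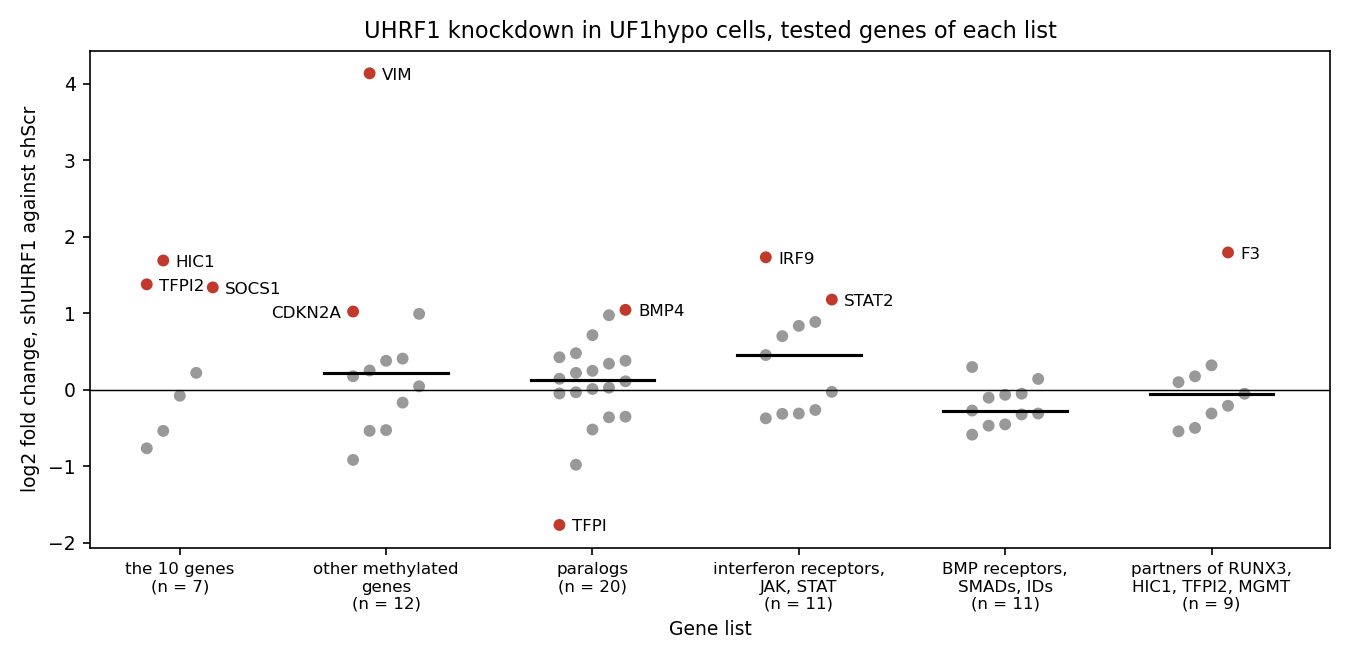
Log2 fold change with UHRF1 knockdown in UF1hypo on the log2(TPM + 1) scale (y axis) for the tested genes of the 10 and of 5 further lists (x axis, n tested in brackets). Each point is a gene, red and named where called, and each bar is the median of a further list. These medians lie between -0.27 and 0.45, and VIM, at 4.14, lies above all others.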

How the data were processed

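The authors trimmed paired-end reads (Fastp), mapped them with HISAT2 2.0.4 to GRCh38 and estimated gene abundance with StringTie 2.1.4. The deposited coverage is the mean read depth per base of a gene and is not scaled for library size. The deposited FPKM values were scaled by the authors for transcript length and aligned bases, and the deposited TPM values for length and a constant total. No read counts were used here, so counting error is unknown. Genes were matched to GENCODE 44, and protein-coding genes were tested with limma 3.58.1 (R 4.3.3) on log2(TPM + 1) in 1 fit of all 8 libraries and 4 groups, with a variance trend, 4 residual degrees of freedom before moderation and Benjamini-Hochberg adjustment over all tested genes. The steps were tested on simulated data. Python 3.11.15, pandas 2.3.3, numpy 2.4.6 and matplotlib 3.10.9 were used otherwise. RefSeq windows of GRCh38.p14 gave promoter sequence. The values of 1 gene of the interferon list are not reported here.

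The 10 genes and the gene lists were chosen with earlier results of these data known. Named genes are the 10, UHRF1, per list and comparison at most the 3 called genes of largest fold, the nearest neighbours of called genes, and for each called gene the 3 genes of highest correlation. The settings counted in the text are the one reported and its alternatives: pseudocount, filters, FPKM, scaling, GC content and length, variance trend, replicate block, fewer libraries, and exon coverage per aligned gigabase with a pseudocount of 0.1, the last chosen after seeing the data.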

Additional observations from a re-analysis of the deposited data

Results flagged for a closer look

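For CACNA1G both knockdown libraries lay above both control libraries by TPM in HCT116 and below them in UF1hypo. The difference of the effects was -0.73 on the log2 scale and did not pass the test (adjusted p = 0.284). In HCT116 the change was within its SE (0.19 ± 0.241). By coverage per aligned gigabase the HCT116 groups overlapped, at 0.914 and 0.767 in shScr and 1.24 and 0.808 in shUHRF1. TFPI2 was higher in both UF1hypo knockdown libraries, and in HCT116 it was listed at 0 in both against traces of 0.0579 and 0.0327 TPM in the controls. These traces give no direction in HCT116, where TFPI2 was below the filter (unadjusted p = 0.844 without it). The difference of the effects was 1.44 (adjusted p = 0.133).

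Of the 5 lists, 63 genes were tested for a difference of the effects between the lines. Over all 13781 genes tested for it, 5.09% were called. The list genes called were VIM (1.95, adjusted p = 0.0379), RUNX1 (1.34, adjusted p = 0.0363), TFPI (-1.88, adjusted p = 0.0217), IRF9 (1.33, adjusted p = 0.0222) and F3 (2.48, adjusted p = 0.00109), each as UF1hypo minus HCT116. F3 was called in all 21 settings, TFPI and IRF9 in 14, RUNX1 in 11 and VIM in 10. The calls of VIM, RUNX1, TFPI and IRF9 were lost without any single one of the 6 HCT116 and UF1hypo shScr libraries, at adjusted p between 0.0683 and 0.182. In HCT116 the log2 fold change with the hairpin was -0.69 ± 0.174 for F3 (limma adjusted p = 0.294) and -0.37 ± 0.204 for RUNX1 (adjusted p = 0.898). In UF1hypo it was 1.79 and 0.97. The estimates of these 2 genes lay on opposite sides of 0, but neither was called in HCT116. In UF1hypo RUNX1 had a limma adjusted p of 0.0167 and missed only the fold threshold.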

How the results depend on the processing

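In UF1hypo the 3 called genes became 1 with quantile normalization and 0 when the 4 libraries were fitted alone. For the difference between the lines the 0 called genes became 4 with the GC content and length correction and 2 with exon coverage, and for the shScr groups the 1 called gene became 0 with no TPM filter. The other methylated genes called in UF1hypo went from 2 to 1 with FPKM, median-ratio scaling, quantile normalization, the GC content and length correction and the 4 libraries alone, and the partners called between the shScr groups from 2 to 1 with no TPM filter, FPKM, no variance trend, the GC content and length correction and exon coverage. UHRF1 passed in HCT116 with a pseudocount of 0.1 (-1.52), the GC content and length correction (-1.40), the 4 libraries alone (-1.5) and exon coverage (-1.55), and was called in UF1hypo with the correction (-1.01) and exon coverage (-1.08). NDRG4 changed sign with exon coverage, to 0.18 in HCT116 and -0.0033 for the difference. The causes were not tested.

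Leaving out 1 library at a time gave 0 to 4 called genes in UF1hypo, 0 to 3 for the difference, and 0 between the shScr groups and in HCT116. The lists gave 1 to 4 (other methylated genes), 2 to 3 (paralogs and interferon pathway) and 1 to 2 (partners) in UF1hypo, and 2 (interferon pathway) and 0 (partners) between the shScr groups. UHRF1 lay between -1.58 and -1.41 in HCT116 and between -1.17 and -0.51 in UF1hypo. NDRG4 ran from -0.29 to 0.0734 in HCT116, from -0.12 to 0.56 in UF1hypo and from -0.0126 to 0.66 for the difference, and RUNX3 from -0.31 to 0.15 in UF1hypo.

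Same-numbered libraries did not deviate together (r = 0.0547 between the HCT116 groups, 0.0258 between the shScr groups and -0.402 between the UF1hypo groups). The UF1hypo groups follow GC content with opposite signs (rho -0.508 in shScr and 0.814 in shUHRF1). These correlations therefore cannot exclude that the numbers pair the libraries. With the replicate block 3 genes were called in UF1hypo, 0 in HCT116, 0 for the difference and 1 between the shScr groups. In the 4 UF1hypo libraries alone the block gave 2 and the crossed pairing, added after seeing the data, gave 3 (826 and 1313 of all genes). Of all genes, 1162 were called in UF1hypo (1007 higher), 563 with the 4 libraries alone, 749 with FPKM, 1004 with quantile normalization (669 higher), 655 without the first UF1hypo shScr library and 2255 without the second UF1hypo shUHRF1 library (1394 higher). For the difference 702 were called (625 higher), 448 with a pseudocount of 0.1, 473 with quantile normalization (356 higher), 1051 with the GC content and length correction (784 higher) and 171 to 2142 without 1 library. Between the shScr groups 455 were called, and 149 to 190 without 1 library. In HCT116, 9 were called, with 0 to 89 over the alternatives.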

Other observations

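The genes whose log2(TPM + 1) followed those of the called genes most closely over the 8 libraries were taken from 13780 compared. They share libraries, depth and the step of the UF1hypo shUHRF1 group, so the correlations are descriptions. For HIC1 these were BLK, a Src-family kinase of B cells (r = 0.996), the hair keratin gene KRT31 (0.994) and the hair keratin-associated gene KRTAP3-2 (0.991). BLK went from a mean of 0.131 TPM in UF1hypo shScr to 2.64 TPM in UF1hypo shUHRF1. For TFPI2 they were NMT2, an N-myristoyltransferase (0.995), CETP, a lipid transfer protein of plasma (0.994), and VGLL3, a cofactor of TEAD factors (0.994). For SOCS1 they were CRYBG2 (0.991), DES, the muscle intermediate filament desmin (0.990), and EGLN2, a prolyl hydroxylase that acts on hypoxia-inducible factor (0.988). DES had mean levels of 4.0, 5.45, 5.92 and 14.7 TPM in HCT116 shScr, HCT116 shUHRF1, UF1hypo shScr and UF1hypo shUHRF1. For MGMT they were TNS2 (0.980), P4HA2 (0.951) and FAM89B (0.951), and TNS2 had a mean of 19.5 TPM in UF1hypo shScr and of 8.92 to 12.3 TPM in the other groups.

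The nearest protein-coding neighbours of the called genes were not called in UF1hypo. GNG11, a G protein gamma subunit 30.98 kb from TFPI2, was at 0.146 and 0.110 TPM in UF1hypo shScr and at 0.599 and 2.02 TPM in UF1hypo shUHRF1 (0.96 ± 0.289, adjusted p = 0.0638). GNGT1, whose span overlaps TFPI2, was at 1.29 and 1.82 TPM and at 1.45 and 1.16 TPM, and CALCR, the calcitonin receptor gene on the other side, was at most at 0.294 TPM. CLEC16A, 72.23 kb from SOCS1, went from 13.4 and 13.9 to 20.0 and 17.5 TPM (0.43 ± 0.177, adjusted p = 0.159), and the spermatid gene TNP2 was listed at 0 in all libraries. DPH1 (-0.10 ± 0.172) and SRR (-0.49 ± 0.299) flank HIC1. The nearest to MGMT are MKI67, 1341 kb away (-0.34 ± 0.206 in UF1hypo), and EBF3, 64.25 kb away, which was at most at 0.506 TPM. Between the shScr groups, where MGMT was called, MKI67 was not (-0.44 ± 0.207, limma adjusted p = 0.302).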
